A study of Saccharomyces cerevisiae with 72 samples.

Results

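The comparison described here set diploid budding yeast cells with the T99N allele of *UME6* against cells with wild-type *UME6* after 4 h in sporulation medium (SPO), by poly(A) RNA-seq. It used 6 of the 72 samples of the series, 3 libraries of each strain at 4 h, and 5424 coding sequence (CDS) features out of the 5498 features that were quantified. A feature was taken as a CDS where its coordinates matched a gene row of the deposited SK1 annotation. The other 74 features are regions upstream of a CDS, where a 5′-extended transcript runs, and they are not described. Of the CDS features, 5415 passed the filter on low counts.

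Both strains were MATa/MATalpha diploids of the SK1 background with *IME1* placed under the copper-inducible *CUP1* promoter (irt1::pCUP1-3HA-IME1::KANMX, homozygous). The wild-type strain, UB20649, also carried ime4::pCUP1-3HA-IME4::KANMX and Ume6-3v5::His3MX. The mutant strain, UB22629, carried pCUP-IME4::NAT and ume6::UME6(T99N)-3V5::KanMX. The strains therefore also differed in the construct that drives *IME4* and in selectable markers, and the effects of these differences cannot be told apart from that of T99N. Cells of both strains were induced with 50 µM CuSO4 after 2 h in SPO, so that the libraries at 4 h were taken 2 h after copper, when wild-type cells are in meiotic prophase, and those at 2 h before it. Nothing in the labels says that libraries with different replicate numbers came from separate cultures, so p-values measure the spread between these libraries, which may be technical.

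Ume6 is a DNA-binding protein that recognizes the URS1 motif, with the core GGCGGC, in the promoters of early meiotic genes. In mitotic cells it recruits the histone deacetylase Rpd3 with Sin3, and the chromatin remodeler Isw2, and keeps these genes silent. When cells starve, the transcription factor Ime1 is made and binds Ume6, and the complex activates the same genes, whose products replicate and pair the chromosomes, break and repair DNA and build the synaptonemal complex of meiotic prophase. The T99N substitution blocks the interaction of Ume6 with Ime1.

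The URS1 cores upstream of some of the genes with the largest differences are shown because Ume6 acts through this motif. Each window of 30 bases comes from the S288C genome (R64 build, RefSeq), not from SK1, and is written 5′ to 3′ on the strand of the gene. Capitals mark the core (GGCGGC, or GCCGCC where the motif lies on the other strand) nearest to the start codon. The genes were picked from those with the largest falls for having both this core and a Ume6 ChIP-seq peak at their transcription start site. The presence of the core and the peak in them is therefore no separate result.
*MEK1*: cggctaaatttcGGCGGCtatttcattcat
*HOP1*: gtttttaacctgGGCGGCtaaattgtactt
*RNP1*: atacaacaaataGCCGCCgaagttcctgta
*MEI5*: gaaaaagtattaGCCGCCcaaacttctatg
*SAE3*: gttctgcctaatGGCGGCtattctatttct
*DMC1*: gaccggaaaataGCCGCCcaaggataaact
*YDL007C-A*: aaaatagcacttGGCGGCtaaactaccggc

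In R64 coordinates the *MEK1* window is chrXV:996628-996657 on the minus strand, with the core ending 128 bases before the start codon. The *HOP1* window is chrIX:226419-226448 on the plus strand, 165 bases before it. Those of *RNP1* (chrXII:47622-47651), *MEI5* (chrXVI:321739-321768), *SAE3* (chrVIII:262645-262674) and *YDL007C-A* (chrIV:437001-437030) lie on the minus strand, 170, 120, 103 and 188 bases before the start codon. The *DMC1* window is chrV:548271-548300 on the plus strand, 132 bases before it.

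The libraries at 4 h held 20865934, 16119268 and 9140964 reads in wild type and 8322635, 6473231 and 10368419 reads in T99N. Levels are given as CPM (counts scaled to a fixed library total) after TMM normalization, and since CPM are not divided by length, levels are compared between strains and not between genes. Replicates of each strain differed by more than sampling noise, and wild-type replicate 3 stood apart from the other wild-type libraries (a chi-square per degree of freedom of 108 and 87.5 against replicates 1 and 2, which gave 21.4 against each other). T99N replicate 1 at 2 h, taken before copper, stood apart with 1815 CPM of *IME1*, while the other 2 T99N libraries of that time held 70.5 and 86.1 CPM.

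The strains were checked first through the genes that had been altered. *UME6* itself was at 1315, 1261 and 2107 CPM in the 3 wild-type libraries at 4 h and at 487, 491 and 447 CPM in the T99N libraries, 3.29-fold lower (log2 fold change −1.72 ± 0.22 SE, adjusted p = 3.6e-05). Without wild-type replicate 3 the log2 fold change was −1.42. The coding change of T99N does not show in these counts. In such bulk libraries fewer cells of a type and less RNA per cell cannot be told apart. Before copper the order was the other way round, with a mean of 201 CPM ± 19.8 (SD, n = 3) in wild type and 650.0 ± 154 CPM in T99N at 2 h, and the difference at 4 h minus that at 2 h was −3.41 on the log2 scale (adjusted p = 3.8e-06).

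*IME1*, which encodes the activator that binds Ume6, was at 2704, 2363 and 3728 CPM in wild type and at 5115, 5641 and 5443 CPM in T99N at 4 h. The 3 T99N libraries lay above the 3 wild-type libraries, with a log2 fold change of 0.88 ± 0.85 that did not pass the test (adjusted p = 0.40). *IME4*, which encodes the mRNA methyltransferase, was at 1986, 1973 and 2274 CPM in wild type and 3868, 3969 and 4586 CPM in T99N (log2 fold change 0.99 ± 0.76, adjusted p = 0.29). The spread of both genes was estimated from libraries at 2 h as well, where T99N replicate 1 was high, and with the 6 libraries at 4 h alone the adjusted p was 0.0052 for *IME1* and 0.00051 for *IME4*. Both strains thus held a high level of the copper-driven transcripts at 4 h, as the plot over time shows.

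**Figure D1:**
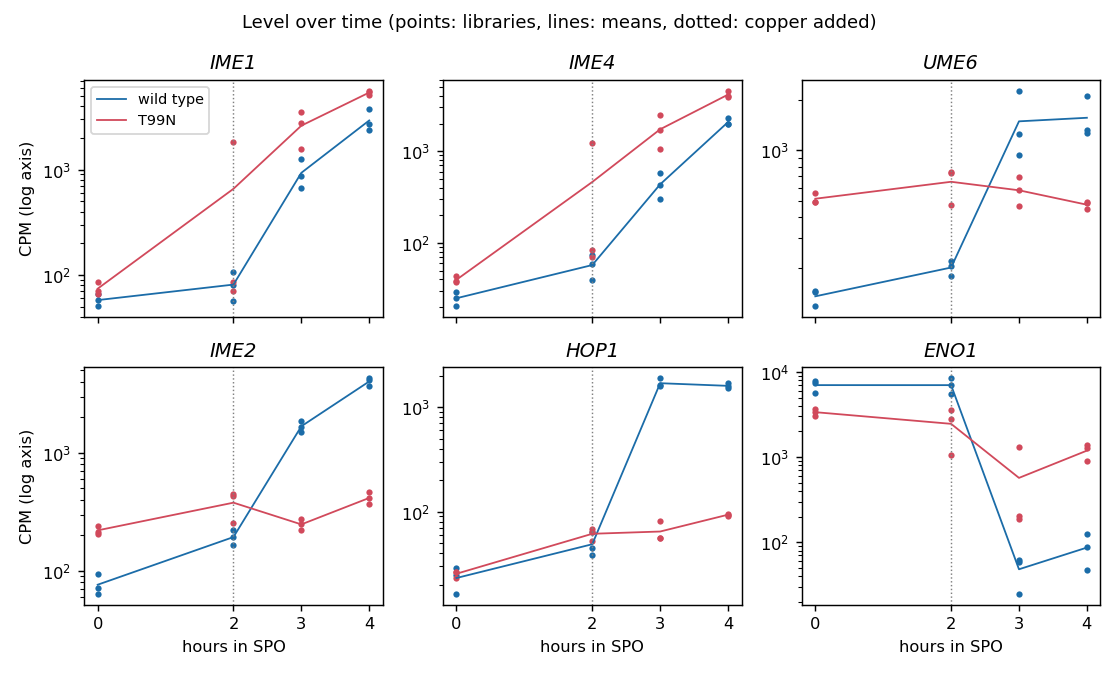
Levels (CPM, log axis) of 6 genes against hours in SPO in wild type and T99N, with points for the 3 libraries of each time, lines for their means and a dotted line where copper was added. Means of *IME1* and *IME4* were higher at 4 h than at 2 h in both strains, *IME2* and *HOP1* were above 1500 CPM at 4 h in the wild-type libraries and at 91.6 to 462 CPM in the T99N libraries, and *ENO1* at 4 h was at 86.7 CPM in wild type and 1190 CPM in T99N.

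Over all CDS features, 1327 were lower and 1307 higher in T99N at 4 h at an adjusted p under 0.05 (edgeR's quasi-likelihood test, Benjamini-Hochberg over the 5486 features tested), and 349 and 371 of these differed by more than 2-fold. Over all features tested, 25.2% were lower and 23.9% higher, and 7.25% and 6.78% were so by more than 2-fold. The 3 T99N libraries all lay below the 3 wild-type libraries for 32.1% of all features tested, and all above them for 30%. The median log2 fold change over CDS features was −0.01. Scaling by library size without TMM moved this median to −0.26 and the split to 1802 lower and 612 higher, because every T99N library had a smaller TMM factor (0.965 to 0.990) than every wild-type library (1.12 to 1.22). Without replicate 2 of both strains, the counts were 663 and 706.

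**Figure D2:**
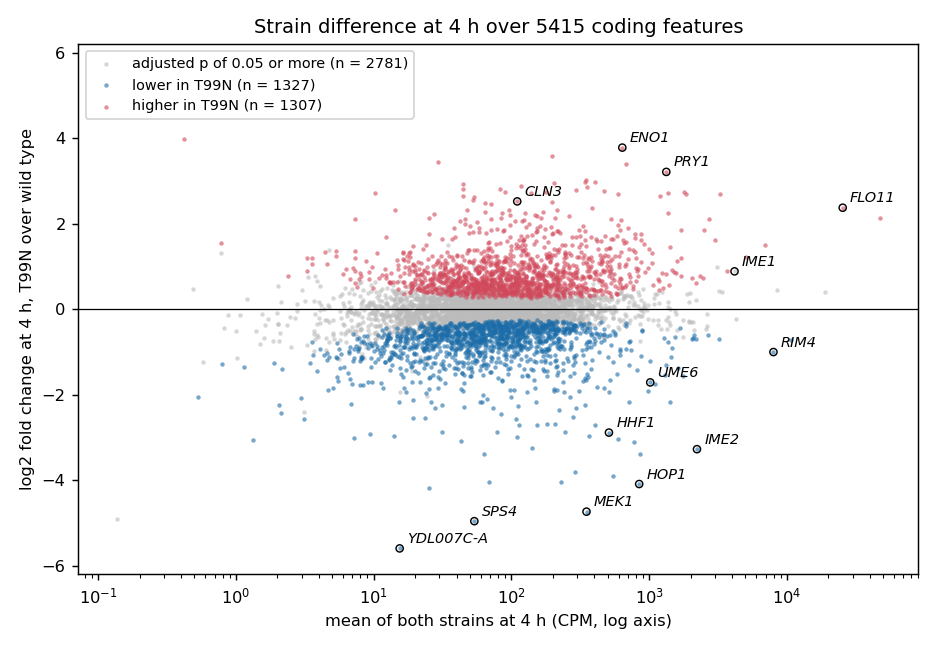
Log2 fold change at 4 h (T99N over wild type) against the mean level of both strains (CPM, log axis) for the 5415 CDS features tested, coloured by call. Genes lower in T99N (1327) reach −5.60 at *YDL007C-A* and genes higher in T99N (1307) include *ENO1* at 3.78.

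Among genes with separate libraries and at least 10 CPM in the higher strain, the largest difference was at *YDL007C-A*, an open reading frame with no name in the annotation. It was at 27.1, 30.7 and 33.0 CPM in wild type and 0.607, 0.782 and 0.500 CPM in T99N (log2 fold change −5.60 ± 0.50, adjusted p = 2.1e-06). At 2 h both strains were as low as T99N was at 4 h, with means of 0.737 and 0.784 CPM. Next came *SPS4*, a sporulation gene, but its difference rested on 1 library. It was at 290.2, 8.90 and 13.8 CPM in wild type and 4.49, 2.50 and 3.00 CPM in T99N (−4.96 ± 1.66, adjusted p = 0.025), and without wild-type replicate 1 its log2 fold change was −1.73 with an adjusted p of 0.32. Its call was also lost without any 1 of the T99N libraries.

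The genes that build the chromosome axis and the synaptonemal complex, the protein zipper that holds paired chromosomes together in prophase, had the lowest median log2 fold change of the lists examined. Of the 15 genes listed, 14 were lower in T99N and none higher, 13 of them by more than 2-fold. The median of their log2 fold changes was −2.71. Of all features tested, 25.2% were lower, and 7.25% were lower by more than 2-fold. The kinase gene *MEK1*, which directs repair of breaks toward the homologous chromosome (SK1 chromosome XV, 959574 to 961067), was at 719, 702 and 608 CPM in wild type and at 25.1, 24.4 and 26.4 CPM in T99N. This was a 26.7-fold difference (log2 fold change −4.74 ± 0.17, adjusted p = 1.3e-09), with less than 3 CPM between the T99N libraries.

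*HOP1*, which encodes the axis protein needed to activate the Mek1 kinase (SK1 chromosome IX, 211476 to 213293), was at 1702, 1584 and 1511 CPM in wild type and at 91.6, 93.9 and 95.4 CPM in T99N, 17.1-fold lower (adjusted p = 1.1e-08). *GMC2*, whose product promotes assembly of the central element of the complex, was at 117, 121 and 151 CPM against 7.40, 8.75 and 7.49 CPM (−4.05 ± 0.17). *SPO22*, also known as *ZIP4*, which encodes a protein that starts synapsis, was at 1016, 1003 and 1170 CPM against 118, 139 and 128 CPM (−3.05 ± 0.18). In each of these the lowest wild-type library was more than 7 times the highest T99N library.

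Other members with differences of this size were *RED1*, a partner of Hop1 on the axis (−2.98), *NDJ1*, which tethers telomeres to the nuclear envelope (−2.88), *ZIP1*, the transverse filament (−2.72), and *ECM11*, the partner of Gmc2 (−2.71). They were named after their values were seen. *SPO16*, a partner of Zip2, was the exception in the list. It was at 162, 173 and 262 CPM in wild type and 265, 303 and 219.8 CPM in T99N, with overlapping libraries (0.40 ± 0.23, adjusted p = 0.17), while at 2 h it was at a mean of 6.12 CPM in wild type and 89.4 CPM in T99N.

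Double-strand breaks, which start meiotic recombination, are made by Spo11 with a set of partners. Of the 12 genes listed, 7 were lower in T99N (58.3%) and none higher, beside 25.2% and 23.9% of all features tested. The median log2 fold change of the list was −0.64. *SPO11*, the transesterase that cuts the DNA, was at 178, 217 and 193 CPM in wild type and at 25.1, 24.4 and 23.9 CPM in T99N (log2 fold change −3.00 ± 0.16, adjusted p = 4.5e-08). *MEI4*, needed for break formation, was at 128, 127 and 157 CPM against 20.4, 20.8 and 15.0 CPM (−2.88 ± 0.18). *REC102*, a subunit of the Spo11 core complex, was at 171, 207 and 181 CPM against 30.8, 30.6 and 31.9 CPM (−2.58 ± 0.13).

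*MER1*, the splicing activator needed for the introns of several meiotic transcripts, was lower as well, at 45.5, 31.5 and 44.7 CPM against 6.55, 7.82 and 6.40 CPM (−2.56 ± 0.23). *REC114*, a partner of Mei4, did not pass the test, at 472, 434 and 792 CPM against 410.0, 451 and 432 CPM (−0.39 ± 0.21, adjusted p = 0.13). Of the general repair genes of the list, *RAD50*, *MRE11*, *XRS2* and *SAE2* had log2 fold changes between −0.31 and 0.17 and adjusted p-values from 0.096 to 0.76, values seen before these genes were named.

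Most genes for strand exchange and crossing over, which repair the breaks, were lower in T99N. Of the 21 genes listed, 13 were lower (61.9%) and 2 higher (9.52%), with a median of −0.88. Among all features tested, 25.2% were lower and 23.9% higher. *DMC1*, the meiotic recombinase, was at 1334, 1308 and 1499 CPM in wild type and 130.3, 163 and 187 CPM in T99N (log2 fold change −3.11 ± 0.20, adjusted p = 1.3e-07). Its loading factors Mei5 and Sae3 act as a pair. *MEI5* was at 389, 337 and 889 CPM against 34.3, 39.9 and 41.6 CPM (−3.80 ± 0.34, and −3.21 without wild-type replicate 3). *SAE3* was at 116, 128 and 100.0 CPM against 11.4, 10.5 and 10.9 CPM (−3.39 ± 0.20).

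*MSH4*, which stabilizes crossover intermediates, was at 355, 337 and 386 CPM against 51.7, 57.2 and 57.9 CPM (−2.69 ± 0.17). *MMS4*, a subunit of the nuclease that resolves joint molecules, was among the 2 higher members, at 61.9, 58.8 and 87.6 CPM against 109.7, 119.6 and 111 CPM (0.71 ± 0.18, adjusted p = 0.0047). Its call was lost without replicate 2 (0.57, adjusted p = 0.073) and without TMM (0.45, adjusted p = 0.12).

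**Figure D3:**
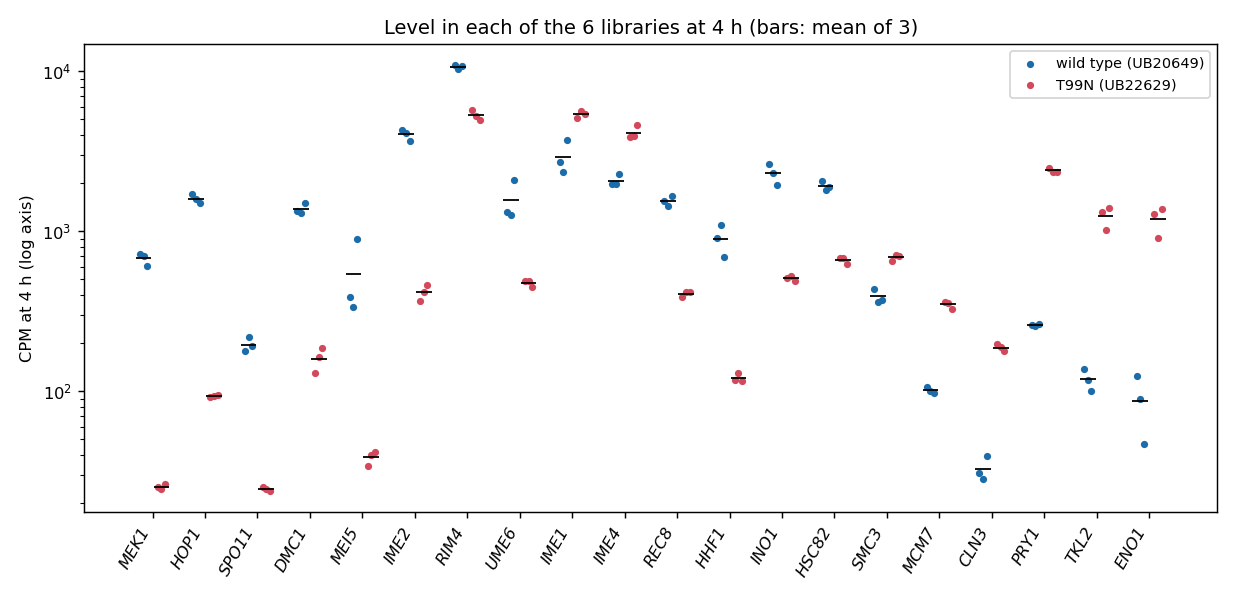
Levels (CPM, log axis) of 20 genes in each of the 6 libraries at 4 h, with a bar for the mean of each strain. *MEK1* libraries lie at 608 to 719 CPM in wild type and 24.4 to 26.4 CPM in T99N, and *TKL2* at 101 to 138 CPM and 1021 to 1408 CPM. *IME1* and *IME4*, whose libraries are separate, did not pass the test in the fit that includes the libraries at 2 h. They passed it with the 6 libraries at 4 h alone (adjusted p = 0.0052 and 0.00051).

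Of the 23 meiotic regulators listed, 8 were lower (34.8%) and 3 higher (13.0%) in T99N, beside 25.2% and 23.9% of all features tested. Without replicate 2 the counts were 4 and 2. *IME2*, the kinase made under Ime1 that drives premeiotic replication and prophase, was at 4293, 4134 and 3665 CPM in wild type and at 367, 417 and 462 CPM in T99N, 9.70-fold lower (log2 fold change −3.28 ± 0.23, adjusted p = 2.4e-07). At 2 h it was higher in T99N, at a mean of 379 CPM against 194 CPM. *SLZ1*, a partner of the methyltransferase Ime4, was at 1080, 1028 and 1478 CPM against 356, 466 and 502 CPM (−1.44 ± 0.19), and *RIM4*, an RNA-binding translational repressor, was at 10912, 10316 and 10753 CPM against 5704, 5273 and 4945 CPM (−1.01 ± 0.21).

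The other regulators that passed the test differed less. *MCK1*, a kinase that acts upstream of Ime1, was lower (log2 fold change −0.56 ± 0.18), as were *MUM2*, the other partner of Ime4 (−0.43 ± 0.11), and the genes for the Ume6 corepressors, *RPD3* (−0.39 ± 0.11) and *SIN3* (−0.35 ± 0.10). Each of these 4 calls was lost when 1 replicate or library was left out, with adjusted p-values of 0.085, 0.077, 0.12 and 0.17 at most. *ITC1*, the partner of Isw2, was higher (0.82 ± 0.17), as was *POG1* (0.87 ± 0.11). *RME1*, a repressor of Ime1 production, was at 25.8, 27.1 and 24.8 CPM against 34.1, 33.3 and 33.0 CPM (0.37 ± 0.13, adjusted p = 0.036), a call that was lost under most ways of leaving out a library (adjusted p = 0.16 without replicate 2) and without TMM (0.12, adjusted p = 0.64).

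*NDT80*, the transcription factor that ends prophase, was at a mean of 35.1 CPM in wild type and 39.7 CPM in T99N, and did not pass the test (log2 fold change 0.18, adjusted p = 0.44). It was named after its value was seen. Genes that act after it were called in shares near those of all features tested. Of the 31 genes of middle sporulation and the spore wall that were tested, 9 were lower (29%) and 6 higher (19%). Over all features tested these shares were 25.2% and 23.9%. Without replicate 3 the counts of the list were 5 and 4. Means ran from 2.34 CPM (*OSW1*) to 401 CPM (*MPC54*) in wild type and from 0.304 to 257 CPM (*SPS100*) in T99N.

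*OSW1*, a spore wall gene, was near 0 in all libraries, at 5.29, 0.579 and 1.17 CPM in wild type and 0.243, 0.469 and 0.200 CPM in T99N. Its log2 fold change of −3.06 ± 1.06 was −1.48 without wild-type replicate 1, with an adjusted p of 0.25, and the call was also lost without replicate 3 and without any 1 of the T99N libraries. *LDS1*, which acts on lipid droplets at the spore wall, was at 4.98, 4.16 and 7.10 CPM against 1.09, 0.625 and 0.899 CPM (−2.58 ± 0.73, adjusted p = 0.011), and 0.069 without replicate 3. In the other direction, *OSW2* was at 14.1, 13.7 and 18.6 CPM against 71.5, 97.1 and 102 CPM (2.56 ± 0.28), and *SPR1*, a sporulation glucanase, differed by 0.14 ± 0.19 (adjusted p = 0.56).

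The study lists 73 canonical Ume6 targets taken from earlier work. Of these, 38 were lower and 18 higher in T99N, 52.1% and 24.7% of them, and 31 and 11 differed by more than 2-fold. Their median log2 fold change was −0.43. Among all features tested, 25.2% were lower and 23.9% higher, and 7.25% and 6.78% were so by more than 2-fold. The share of targets called higher was thus near that of all features. *RNP1*, an RNA-binding protein gene, was at 263, 234 and 798 CPM in wild type and at 28.4, 26.4 and 23.9 CPM in T99N (−4.04 ± 0.41). Without wild-type replicate 3 its log2 fold change was −3.22. *FMP16*, a gene for a mitochondrial protein, moved the other way, at 85.2, 77.0 and 67.7 CPM against 607, 628 and 632 CPM (3.02 ± 0.24, adjusted p = 8.1e-07).

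After *MEK1*, *HOP1*, *GMC2* and *RNP1*, the largest falls among the canonical targets were at *MEI5*, *IME2*, *DMC1*, *SPO22*, *SPO11*, *NDJ1*, *MEI4*, *YOL131W*, *ECM11* and *MSH4*. Those higher by more than 2-fold were *FMP16*, *SHH4* (2.75), *ECL1* (2.20), *SOL4* (1.82), *DAL80* (1.80), *GPH1* (1.72), *SDD1* (1.68), *PUN1* (1.43), *SUE1* (1.22), *YOL024W* (1.14) and *PTK1* (1.06). Of these, *GPH1* encodes glycogen phosphorylase, *SOL4* a pentose phosphate enzyme and *DAL80* a repressor of nitrogen catabolite genes, and all 11 were picked from this list after their values were seen. *ACS1*, the acetyl-CoA synthetase gene and the most abundant target that did not pass the test, was at 19902, 16186 and 12452 CPM against 20963, 21785 and 21520 CPM (0.40 ± 0.30, adjusted p = 0.28).

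Ume6 binding was measured by ChIP-seq in another strain, UB3301, grown to saturation in BYTA without copper. Of the 5025 tested CDS features with a mapped transcription start site, 713 had a peak summit with a fold enrichment over 4 within 300 bp of it in 2 or all 3 of the ChIP replicates. Of these 713 genes, 261 were lower (36.6%) and 135 higher (18.9%), with a median of −0.21. Of the 4312 without such a peak, 997 were lower (23.1%) and 1065 higher (24.7%), with a median of 0.01. With summits within 150 bp, 155 of 356 genes were lower (43.5%) and 40 higher (11.2%).

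The 5 genes with a peak and the largest falls were *YDL007C-A*, *MEK1*, *HOP1*, *GMC2* and *RNP1*. At *HOP1* the summit had a fold enrichment of 32.7, 64.6 and 54.7 in the 3 ChIP replicates. At *MEK1* it was lower, at 5.70, 11.6 and 12.7. The enrichment at *IME2* was higher than at both, at 74.9, 111 and 87.4.

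The core motif was searched for on both strands from 250 bases before to 50 after each start codon in R64. It was found at 255 of 5387 CDS features (4.73%), among 19.5% of those lower by more than 2-fold (68 of 349), and among 4.35% of those higher by more than 2-fold (16 of 368). Of the 255 genes, 131 were lower (51.4%) and 34 higher (13.3%), beside 25.2% and 23.9% of all features tested. Of the 137 genes with both a peak and the core, 88 were lower (64.2%) and 8 higher (5.84%), with a median of −0.71, and of the 576 with a peak and no core in this window, 173 were lower (30.03%) and 127 higher (22.0%). The longer form GGCGGCT or its reverse complement was found at 43 of the 349 genes (12.3%) and at 2.15% of all.

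The study names 74 loci where wild-type cells make a 5′-extended transcript in prophase, chosen on a rise in wild-type libraries of another assay in this series. Of the CDS features of these loci, 43 were lower (58.1%) and 15 higher (20.3%) in T99N at 4 h, with a median of −0.44. Among all features tested, 25.2% were lower and 23.9% higher. Without TMM 48 of the loci were lower and 4 higher, and without replicate 2 they were 31 and 6. Reads over the CDS come from the extended and the shorter transcript together. *MNE1*, a gene for a mitochondrial splicing factor, was at 1007, 1082 and 998 CPM in wild type and 68.9, 68.3 and 69.9 CPM in T99N (−3.90 ± 0.21). *ULP2*, the gene for a SUMO protease, was at 1553, 1566 and 1542 CPM against 139, 156 and 148 CPM (−3.40 ± 0.19).

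Cohesin, the ring that holds sister chromatids, is built in meiosis with Rec8 in place of Mcd1. In this list of 15 genes, 5 were lower (33.3%) and 7 higher (46.7%), beside 25.2% and 23.9% of all features tested. Without TMM, as without replicate 2, 5 were lower and 3 higher. *REC8* was at 1547, 1450 and 1668 CPM in wild type and 389, 418 and 418 CPM in T99N (log2 fold change −1.93 ± 0.31, adjusted p = 2.3e-04). *SPO13*, which keeps sister kinetochores together in the first division, was at 247, 247 and 477 CPM against 84.8, 89.9 and 82.5 CPM (−1.91 ± 0.26). Without wild-type replicate 3 its log2 fold change was −1.5. *SCC2*, the cohesin loader, was at 783, 813 and 764 CPM against 249.6, 252 and 247 CPM (−1.66 ± 0.16).

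*RAD61*, which releases the ring from DNA, was at 63.6, 57.5 and 84.3 CPM against 169, 185 and 172 CPM in T99N (1.36 ± 0.16). *SMC3*, a subunit of every cohesin ring, was at 439, 364 and 374 CPM against 652, 707 and 706 CPM with separate libraries, but did not pass the test (0.81 ± 0.35, adjusted p = 0.068).

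Genes of the replication machinery and of deoxynucleotide synthesis, which cells use before meiosis as well as before mitosis, were more often higher than lower in T99N. Of the 49 genes, 23 were higher (46.9%), 4 lower (8.16%) and 22 not called, beside 23.9% higher and 25.2% lower of all features tested. The median of the list was 0.30, and without TMM 13 were higher and 6 lower. *MCM7*, a subunit of the replicative helicase, was at 106, 100.4 and 98.2 CPM in wild type and 364, 357 and 327 CPM in T99N (log2 fold change 1.78 ± 0.16, adjusted p = 2.2e-06). *RNR1*, the large subunit of ribonucleotide reductase, was at 434, 395 and 258 CPM against 1153, 1249 and 1241 CPM (1.74 ± 0.36).

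*CDC9*, the DNA ligase that joins Okazaki fragments (1.60 ± 0.19), and *POL30*, the sliding clamp PCNA (1.43 ± 0.27), were also higher. *TAH11*, which loads the helicase at origins, was the member with the largest difference downward, at 38.8, 43.0 and 36.5 CPM against 16.6, 17.2 and 15.6 CPM (−1.26 ± 0.13). *POL2*, the leading-strand polymerase, was at 343, 328 and 333 CPM against 366, 392 and 352 CPM (0.14 ± 0.19, adjusted p = 0.54).

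Among 21 genes for cyclins and cell cycle control, 8 were lower (38.1%) and 6 higher (28.6%), beside 25.2% and 23.9% of all features tested. The genes of the G1 cyclins Cln3 and Cln1, which act at Start of the mitotic cycle, were higher. *CLN3* was at 31.0, 28.3 and 39.3 CPM in wild type and 197, 188 and 178 CPM in T99N (log2 fold change 2.52 ± 0.23), and *CLN1* at 17.2, 19.2 and 19.0 CPM against 68.1, 79.1 and 74.4 CPM (2.00 ± 0.22). *AMA1*, the meiotic activator of the anaphase-promoting complex, was lower, at 423, 499 and 549 CPM against 131, 123 and 135 CPM (−1.92 ± 0.14).

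*CLB4*, a mitotic and meiotic cyclin, was lower as well, at 60.9, 61.1 and 42.5 CPM against 21.4, 21.4 and 21.0 CPM (−1.37 ± 0.17). *CLB5*, the S-phase cyclin, did not pass the test (−0.23 ± 0.16, adjusted p = 0.23).

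Of the 23 kinetochore genes, which link chromosomes to the spindle, 10 were lower (43.5%) and 4 higher (17.4%), with a median of −0.37. Over all features tested, 25.2% were lower and 23.9% higher. The higher count of the kinetochore genes was 2 without replicate 2, and without wild-type replicate 1 or 2 alone. *NNF1* was at 49.0, 51.7 and 50.6 CPM in wild type and 15.7, 14.8 and 15.0 CPM in T99N (−1.73 ± 0.15), and *DAD1* had a log2 fold change of −1.70 ± 0.23. *NDC80*, whose 5′-extended transcript is the best known of its kind, was at 343, 304 and 549 CPM against 190.0, 195 and 183 CPM (−1.07 ± 0.20, adjusted p = 6.0e-04). Without wild-type replicate 3 its log2 fold change was −0.75 (adjusted p = 6.7e-04). *DAD2* was higher (1.06 ± 0.21), and *NUF2*, the partner of Ndc80, was at 55.6, 54.1 and 192 CPM against 113, 133 and 127 CPM, with wild-type replicate 3 above and the others below all T99N libraries (0.32 ± 0.37, adjusted p = 0.50). Without wild-type replicate 3, *NUF2* was higher in T99N by 1.20 (adjusted p = 5.6e-05).

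Histones package newly made DNA, and 9 of the 10 histone genes measured were lower in T99N (90%), with a median of −1.76. Among all features tested, 25.2% were lower. *HHF1*, a histone H4 gene, was at 906, 1101 and 691 CPM in wild type and 118, 129 and 116 CPM in T99N (log2 fold change −2.89 ± 0.16, adjusted p = 5.2e-08). *HHT1*, a histone H3 gene, was at 272, 225 and 94.3 CPM against 28.2, 30.6 and 31.9 CPM (−2.71 ± 0.33). *HTB2* (−2.36 ± 0.30) and *HTA2* (−1.86 ± 0.22) followed. *HHT2*, the second H3 gene, did not pass the test, at 504, 409.7 and 838 CPM against 487, 523 and 510.2 CPM (−0.20 ± 0.21, adjusted p = 0.45). Histone genes occur as near-identical pairs, so reads may have been split between copies.

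Of 23 heat shock and chaperone genes, 16 were lower (69.6%) and 2 higher (8.70%), beside 25.2% and 23.9% of all features tested. The median of the list was −0.65. Without replicate 2, 10 were lower and none higher. *SSA2*, an Hsp70 gene, was at 93.6, 83.7 and 52.1 CPM against 12.1, 8.44 and 6.70 CPM (−3.08 ± 0.27), and its near-identical copy *SSA1* at 3166, 2820 and 1930 CPM against 981, 818 and 858 CPM (−1.58 ± 0.24). *HSC82*, an Hsp90 gene, was at 2071, 1806 and 1896 CPM against 681, 682 and 623 CPM (−1.54 ± 0.15), and *BTN2*, which sorts misfolded proteins, was also lower (−1.48 ± 0.17). *SSA3*, the Hsp70 gene made in stationary phase, was higher (0.83 ± 0.29, adjusted p = 0.033), a call lost without replicate 3 (0.69, adjusted p = 0.17), without any other library at 4 h and without TMM (0.58, adjusted p = 0.064). *HSP12*, a small heat shock gene, did not pass the test (0.08 ± 0.34, adjusted p = 0.87).

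**Figure D4:**
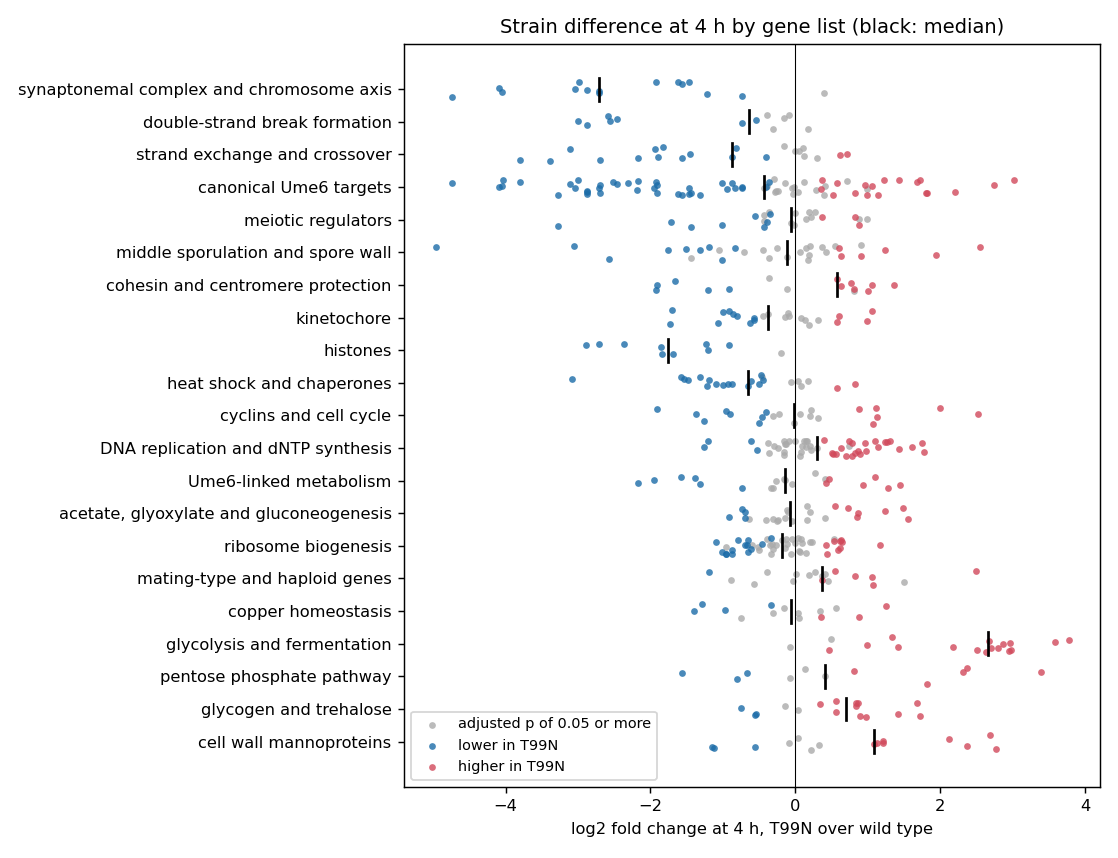
Log2 fold change at 4 h (T99N over wild type) of each tested gene in 21 lists, coloured by call, with a black bar at the median of the list. The synaptonemal complex list (median −2.71) and the histones (−1.76) lie to the left, the glycolysis list (2.66), which was drawn up after its values were seen, to the right.

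Genes for acetate use showed no common direction. Cells in SPO live on acetate, which they convert by the glyoxylate cycle and gluconeogenesis. Of 24 such genes 7 were higher (29.2%) and 4 lower (16.7%), beside 23.9% and 25.2% of all features tested. Higher and lower counts were 5 and 8 without TMM, and 4 and 1 without replicate 2. The lower count was 2 without wild-type replicate 1, wild-type replicate 2 or T99N replicate 1 alone. *ACS2*, the second acetyl-CoA synthetase gene, was at 395, 337 and 265 CPM in wild type and 1015, 954 and 949.8 CPM in T99N (1.55 ± 0.20), and *ATO2*, an acetate and ammonium transporter gene, was higher by 1.49 ± 0.22. *FBP1*, fructose-1,6-bisphosphatase, was at 125, 99.7 and 98.1 CPM against 240.3, 241 and 280.0 CPM (1.24 ± 0.22), and *CRC1*, the mitochondrial carnitine carrier, was lower (−0.91 ± 0.18).

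Of 20 metabolic genes that Ume6 is known to control, 6 were lower and 6 higher (30% each, beside 25.2% and 23.9% of all features tested), and without TMM 9 and 4. *INO1*, the first enzyme of inositol synthesis, was at 2645, 2319 and 1946 CPM against 509, 527 and 492 CPM (−2.18 ± 0.23), and *CAR1*, arginase, at 918, 874 and 635 CPM against 195, 214 and 219 CPM (−1.95 ± 0.19). *OPI3*, which completes phosphatidylcholine synthesis, was higher, at 182, 168 and 149 CPM against 438, 477 and 445 CPM (1.44 ± 0.16).

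Among the genes named for a large rise, the largest were *ENO1* and *TDH1*, and a list of 18 glycolytic and fermentation genes was drawn up after this was seen. In it 16 genes were higher (88.9%) and none lower, beside 23.9% and 25.2% of all features tested. The median was 2.66 beside −0.01 over all CDS features. Since the list was drawn up in this way, it is a description. *ENO1*, enolase, was at 124, 89.0 and 46.7 CPM in wild type and 1288, 902 and 1381 CPM in T99N, 13.7-fold higher (3.78 ± 0.45, adjusted p = 2.0e-05). *TDH1*, glyceraldehyde-3-phosphate dehydrogenase, was at 35.1, 35.4 and 20.6 CPM against 349, 311 and 439 CPM (3.59 ± 0.42). Both belong to families of near-identical genes, between which reads may have been split.

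*CDC19*, pyruvate kinase, was at 112, 89.4 and 70.9 CPM against 827, 560.4 and 756 CPM (2.97 ± 0.37). *PGK1*, phosphoglycerate kinase, was higher by 2.97 ± 0.39 and *GPM1*, phosphoglycerate mutase, by 2.95 ± 0.40. The first step of the pathway was an exception, with *GLK1*, glucokinase, at 456, 407 and 303 CPM against 393, 344 and 372 CPM (−0.07 ± 0.21, adjusted p = 0.79). All 3 libraries of T99N were below those of wild type at 2 h for *ENO1*, at 1055, 2780 and 3535 CPM against 5515, 8431 and 7023 CPM, and the mean over T99N libraries was 2457 CPM at 2 h and 1190 CPM at 4 h.

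The other lists chosen after their values were seen held storage and cell wall genes. Of 16 genes for glycogen and trehalose, 11 were higher (68.8%) and 3 lower (18.8%), beside 23.9% and 25.2% of all features tested. *GPH1* was at 354, 284 and 174 CPM against 931, 842 and 902 CPM (1.72 ± 0.31), followed by *GSY2*, glycogen synthase (1.67 ± 0.19), *TPS2*, which completes trehalose (1.41 ± 0.17), and *GLG1*, which primes glycogen (0.98 ± 0.16). *UGP1*, which makes UDP-glucose, was lower (−0.76 ± 0.15), and *PGM2*, phosphoglucomutase, differed by 0.04 ± 0.21 (adjusted p = 0.88).

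Of 11 genes of the pentose phosphate pathway, 5 were higher (45.5%) and 3 lower (27.3%), beside 23.9% and 25.2% of all features tested. Without replicate 2 the counts were 5 and 1. *TKL2*, the minor transketolase, was at 138, 118 and 101 CPM in wild type and 1320, 1021 and 1408 CPM in T99N (3.39 ± 0.35, adjusted p = 6.3e-06). *GND2* (2.37 ± 0.29), *NQM1* (2.32 ± 0.29) and *SOL4* (1.82 ± 0.18), each with a major paralog, were also higher. The major form *GND1* was lower, at 80.8, 88.2 and 60.3 CPM against 29.97, 27.5 and 20.2 CPM (−1.57 ± 0.32), and *TAL1*, the major form of transaldolase, did not pass the test (0.13 ± 0.14, adjusted p = 0.46).

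Of 15 genes measured for cell wall mannoproteins, 8 were higher (53.3%) and 3 lower (20%), beside 23.9% and 25.2% of all features tested. *PIR3* was at 144, 128 and 85.0 CPM against 793, 796 and 856 CPM (2.77 ± 0.27), *HSP150* was higher by 2.69 ± 0.34 and the flocculin gene *FLO11* by 2.37 ± 0.47. *SED1* was at 18975, 13726 and 20534 CPM against 75252, 77869 and 79174 CPM (2.13 ± 0.41). *DAN1*, an anaerobic mannoprotein gene, was lower (−1.15 ± 0.27), and *CCW14* differed by 0.22 ± 0.19 (adjusted p = 0.37).

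Outside these lists, *PRY1*, a gene for a secreted sterol-binding protein, was at 261, 256 and 263 CPM in wild type and 2500, 2356 and 2351 CPM in T99N (3.21 ± 0.27, adjusted p = 1.3e-06). *DPC7* was at 4.68, 5.16 and 5.03 CPM against 56.4, 55.6 and 49.8 CPM (3.44 ± 0.41). *YRO2*, a membrane protein gene, was at 13.0, 11.7 and 5.66 CPM against 94.5, 63.6 and 76.8 CPM (2.93 ± 0.35).

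Among genes of ribosome production, 14 of 49 biogenesis genes were lower (28.6%) and 9 higher (18.4%), with a median of −0.18. These shares stand beside 25.2% and 23.9% of all features tested, and without TMM 18 were lower and 1 higher. Leaving out 1 library at 4 h gave between 5 (T99N replicate 3) and 10 (wild-type replicate 3) lower and between 4 (wild-type replicate 2) and 9 (wild-type replicate 3) higher. Without replicate 3 of both strains 4 were lower and 7 higher, and without replicate 2 they were 5 and 2. *NOP15* (−1.10 ± 0.23) was lower and *UTP5* (1.17 ± 0.17) higher, both being needed to process ribosomal RNA. *NOC2* (−0.96 ± 0.25) and *UTP15* (−1.01 ± 0.39) passed the test, but *NOC2* lost it without replicate 2 (adjusted p = 0.076), and *UTP15* without replicate 3 (0.14) and under most other ways of leaving out a library. *TIF6*, which the large subunit needs for its assembly, did not pass it (−0.51 ± 0.25, adjusted p = 0.10). Of 108 ribosomal protein genes, 24 were higher (22.22%) and 13 lower (12.04%), beside 23.9% and 25.2% of all features tested. The share called higher was thus near that of all features, and the share called lower was below it. Without TMM 7 were higher and 15 lower. The lower count was 22 without wild-type replicate 3, 8 and 7 without wild-type replicates 1 and 2, 8 without T99N replicate 3, and 3 and 1 without replicates 1 and 2 of both strains. Without replicate 3 of both strains 19 were lower and 16 higher. *RPL12A* (1.38 ± 0.15), *RPP1B* (1.38 ± 0.20) and *RPL24A* (1.27 ± 0.14) were higher, and *RPL15B* (−1.37 ± 0.11) and *RPS28B* (−1.84 ± 0.43) lower, the last not without replicate 2 (−1.65, adjusted p = 0.065). Most ribosomal protein genes have a near-identical copy.

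Genes of haploid cells and mating served as markers of another cell type, since a diploid should not express them. Of 18 measured, 6 were higher (33.3%) and 1 lower (5.56%), beside 23.9% and 25.2% of all features tested. Without TMM the counts were 3 and 3. *GPA1*, the G protein of the pheromone pathway, was at 21.7, 18.6 and 17.4 CPM in wild type and 102, 114 and 110.0 CPM in T99N (2.49 ± 0.18). *FAR1*, which arrests the cycle (1.08 ± 0.21), and *AXL1*, a protease of a-factor processing (1.06 ± 0.12), were also higher. *MF(ALPHA)2*, a pheromone gene, was at 7.48, 8.06 and 3.59 CPM against 2.67, 2.81 and 3.00 CPM (−1.19 ± 0.31), not without replicate 2 (−0.99, adjusted p = 0.12) or without replicate 1, and *SAG1*, the alpha-agglutinin, did not pass the test (−0.04 ± 0.12, adjusted p = 0.81). Mean levels over the 18 genes ran from 3.27 to 145 CPM in wild type and from 1.77 to 142 CPM in T99N, so that none of the markers of either mating type was at 0. Their part in the other differences was not tested.

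Copper genes were examined because both strains received copper. Of 14 measured, 4 were lower (28.6%) and 3 higher (21.4%), near the 25.2% and 23.9% of all features tested. Without TMM the counts were 5 and 1. Without replicate 2 or without replicate 3 they were 2 and 1, without replicate 1 they were 2 and 4, and 2 were lower without wild-type replicate 1 or 2 or T99N replicate 3 alone. *CUP1-2*, the metallothionein gene of the promoter used to drive the copper constructs, was at 1544, 1193 and 499.7 CPM in wild type and 623, 583 and 717 CPM in T99N, with overlapping libraries (−0.75 ± 0.86, adjusted p = 0.49). *SOD1*, the copper-zinc superoxide dismutase, was higher (1.25 ± 0.20) and *FRE1*, a surface reductase, lower (−0.97 ± 0.22). The copper importer gene *CTR1* was lower (−1.29 ± 0.32) and the reductase gene *FRE7* higher (0.87 ± 0.27), both not without replicate 3 (−1.14, adjusted p = 0.061, and 0.92, adjusted p = 0.073). The call of *FRE7* was also lost without replicate 2, without T99N replicate 1 and without TMM (adjusted p = 0.070).

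Of 9 genes used as markers in strain construction, 2 were lower (22.2%) and 1 higher (11.1%), beside 25.2% and 23.9% of all features tested. *HIS4* was higher (0.76 ± 0.15). *URA3* (−0.83 ± 0.21) and *ADE2* (−0.38 ± 0.12) were lower, both not without replicate 2 (adjusted p = 0.093 and 0.13) or without replicate 1, and *LEU2* did not pass the test (−0.25 ± 0.20, adjusted p = 0.31).

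The strain difference at 4 h was set beside that at 2 h, before copper. At 2 h, 1016 CDS features were lower and 1018 higher in T99N (18.5% and 19.1% of all features tested). Without replicate 2 these counts were 248 and 254, and without TMM 502 were lower. The difference at 4 h minus that at 2 h, an interaction tested within the same model, was below 0 for 911 CDS features and above 0 for 997 (17.5% and 18.2%). Of the 1327 genes lower at 4 h, 335 were also lower at 2 h, 174 were higher at 2 h and 818 were not called at 2 h. Of the 1307 higher at 4 h, 341 were also higher at 2 h, 181 were lower and 785 were not called.

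Many meiotic genes were higher in T99N before copper. Of the 15 synaptonemal complex and axis genes, 11 were higher and none lower at 2 h, and the interaction was below 0 for all 15. Of the canonical targets, 34 were higher and 7 lower at 2 h, with a median of 0.43 that stood at −0.43 at 4 h, and the interaction was below 0 for 38 and above 0 for 11. Without replicate 1, which takes out the T99N library with *IME1* before copper, 38 canonical targets were higher at 2 h and 5 lower, with a median of 0.54, and the interaction was below 0 for 37 and above 0 for 12. The part of the copper-driven transcripts in that library in the differences at 2 h was not tested.

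Glycolytic genes were the other way round, with 15 of 18 lower in T99N at 2 h, 16 higher at 4 h and an interaction above 0 for 17. This list was drawn up after its values were seen, so its counts are a description. Ribosomal protein genes were lower in T99N at 2 h in 94 of 108 cases, while at 4 h their median was 0.14. Histone genes were lower at both times, 6 of 10 at 2 h and 9 of 10 at 4 h, and the interaction was below 0 for 8, or for 5 without replicate 1.

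**Figure D5:**
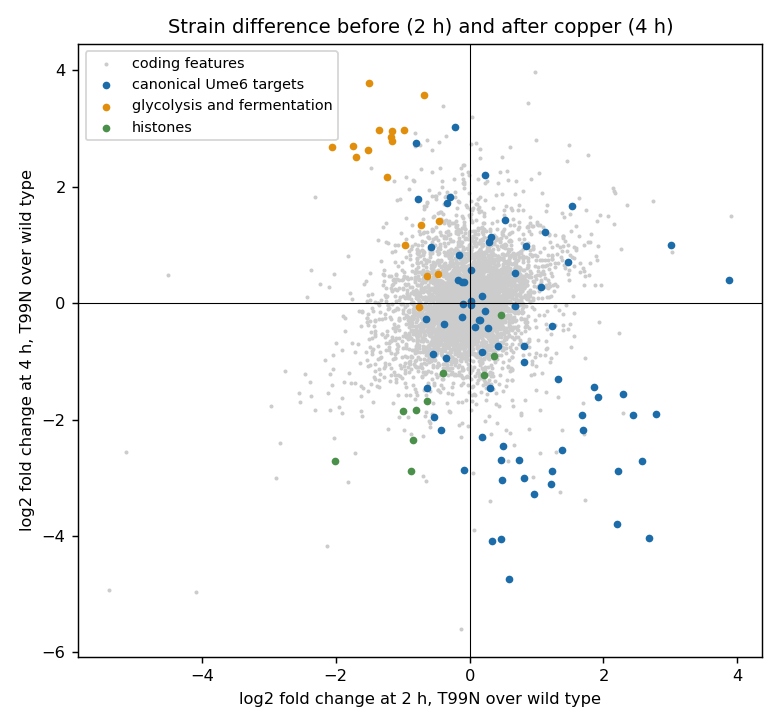
Log2 fold change of T99N over wild type at 4 h (vertical axis) against that at 2 h (horizontal axis) for each CDS feature, with 3 lists coloured. Many canonical Ume6 targets lie at the lower right (medians 0.43 at 2 h and −0.43 at 4 h), the glycolytic genes, listed after their values were seen, at the upper left (−1.16 and 2.66) and most histone genes at the lower left (−0.72 and −1.76).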

How the data were processed

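Poly(A) RNA-seq libraries (strand-marking kit, single-end reads) had been quantified by the authors with Salmon against SK1 features, and the deposited expected counts per feature were used here after rounding to whole numbers. Salmon's strand setting is not given in the sources used here, so overlapping genes are uncertain. The authors' peak files hold the fold enrichment (a ratio) of Ume6 ChIP-seq summits, and from the authors' table of transcription start site clusters, which also holds signal values, the positions were used. The study's DESeq2 comparisons were not used, nor were 44 columns of per-sample values. Genotypes come from the study's strain list, since the labels do not give the T99N allele.

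Counts of the 12 libraries of both strains at 2 h and 4 h were fitted as 4 groups in edgeR 4.0.16 (R 4.3.3, limma 3.58.1) with TMM factors, filterByExpr and the quasi-likelihood test. P-values were adjusted by Benjamini-Hochberg over 5486 features, and calls were made under 0.05. Alternatives covered the scaling, filter, tool (DESeq2 1.42.0), libraries, peak rule and motif. Depth at 4 h was 6473231 to 20865934 reads. Counts were also simulated at these depths, with the same mean in all groups but for 100 genes changed 2-fold and 100 changed 4-fold in T99N at 4 h. The strain difference at 4 h was recovered for 86% and 100% of these, and 4.12% of calls were false. The interaction was recovered for 62% and 97%, and 5.92% of its calls were false. Far more genes were called in the data, so these rates may not carry over to them.

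Named genes were the called regulators with *IME1*, *IME4* and *UME6*, the 10 largest falls and rises with separate libraries and at least 10 CPM, up to 4 called members of each list with 1 called in the other direction and the most abundant one not called, and the 5 largest falls with a Ume6 peak. The members and lists were chosen with earlier results of these data known, and 4 metabolic and cell wall lists after the values were seen. Promoter sequences come from the R64 genome and no coordinates were converted to SK1. One gene that the rule names is not reported here.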

Additional observations from a re-analysis of the deposited data

Results flagged for a closer look

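The strain difference at 4 h and that at 2 h differed for 95 of the 131 named genes by a test of the difference itself (the interaction in edgeR's quasi-likelihood model, adjusted p under 0.05 over all features tested), 50 with a value below 0 and 45 above 0. Of these, 84 also passed the test without replicate 1, and 11 did not (*SSA2*, *HTB2*, *HTA2*, *GND1*, *DAN1*, *NOP15*, *URA3*, *RPD3*, *FRE7*, *POG1* and *AXL1*). Over all features tested, the interaction was below 0 for 17.5% and above 0 for 18.2%. Most named genes were chosen for their difference at 4 h, which is part of this value. The share of them that passed is therefore no separate result. The values below are the log2 difference at 4 h minus that at 2 h.

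Among genes of the synaptonemal complex, the axis and double-strand breaks it was −5.33 for *MEK1*, −4.42 for *HOP1*, −4.51 for *GMC2*, −3.54 for *SPO22*, −3.48 for *SPO16*, −3.81 for *SPO11*, −4.10 for *MEI4*, −3.63 for *REC102*, −3.85 for *MER1* and −1.62 for *REC114*. In genes of strand exchange and crossing over it was −6.00 for *MEI5*, −5.12 for *SAE3*, −4.33 for *DMC1* and −3.43 for *MSH4*. For meiotic regulators it was −3.41 for *UME6*, −4.25 for *IME2*, −3.30 for *SLZ1*, −1.82 for *RIM4*, −1.03 for *MUM2*, −0.46 for *RPD3*, −0.51 for *SIN3* and 0.54 for *POG1*. Over genes of cohesin, the kinetochore and the cell cycle it was −3.61 for *REC8*, −4.35 for *SPO13*, −2.29 for *SCC2*, −1.83 for *NNF1*, −2.06 for *NDC80*, −1.65 for *NUF2*, −2.69 for *AMA1*, −1.13 for *CLB4*, 2.41 for *CLN1* and 2.04 for *CLN3*. Across genes of replication and the histones it was −0.77 for *TAH11*, 1.55 for *MCM7*, 1.91 for *RNR1*, 0.81 for *CDC9*, 1.78 for *POL30*, −2.02 for *HHF1*, −1.52 for *HTB2* and −0.86 for *HTA2*. Within heat shock and copper genes it was −1.26 for *SSA2*, −1.21 for *HSC82*, −1.83 for *BTN2*, 1.83 for *HSP12*, −1.19 for *CTR1*, −0.98 for *FRE1*, 1.05 for *FRE7* and 2.00 for *SOD1*.

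Among genes of acetate use and of metabolism linked to Ume6 it was −1.75 for *INO1*, −1.41 for *CAR1*, 1.87 for *OPI3*, −1.07 for *CRC1*, 1.23 for *FBP1*, 1.48 for *ATO2* and 2.02 for *ACS2*. For the genes of ribosome production it was −0.93 for *NOP15*, −1.18 for *NOC2*, 1.49 for *UTP5*, −1.27 for *RPL15B*, 1.83 for *RPL24A*, 1.15 for *RPP1B* and 1.19 for *RPL12A*. Across the mating genes and the markers of strain construction it was 2.34 for *GPA1*, 1.05 for *FAR1*, 0.73 for *AXL1*, 1.54 for *HIS4* and 0.89 for *URA3*. Over the glycolytic and pentose phosphate genes it was 5.28 for *ENO1*, 4.27 for *TDH1*, 4.32 for *PGK1*, 4.12 for *GPM1*, 3.95 for *CDC19*, 3.80 for *TKL2*, 2.76 for *NQM1*, 2.48 for *GND2*, 2.12 for *SOL4*, 1.13 for *TAL1* and −1.30 for *GND1*. Within the storage and cell wall genes it was 2.06 for *GPH1*, 1.62 for *TPS2*, 1.35 for *GLG1*, 1.14 for *GSY2*, 3.51 for *HSP150*, 3.22 for *PIR3*, 2.45 for *FLO11*, 2.00 for *SED1* and −1.36 for *DAN1*. In the remaining genes it was −5.46 for *YDL007C-A*, −6.72 for *RNP1*, −3.96 for *MNE1*, −3.69 for *ULP2*, 3.74 for *YRO2*, 3.24 for *FMP16*, 3.18 for *PRY1* and 2.57 for *DPC7*.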

How the results depend on the processing

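Of 131 named genes, 109 were called at 4 h and 91 of these under every alternative, and no call changed direction. Over 2749 values under the alternatives, 2645 kept their side of the threshold, 83 called values lost it, 21 gained it and 23 changed sign without being called either way. Most named genes were chosen for passing the test at 4 h in these libraries, so these counts do not carry over to other genes. Of all CDS features, 663 of the 1327 lower calls and 705 of the 1307 higher calls were kept without replicate 2. Without TMM, 612 CDS features were higher at 4 h, 619 and 221 lower and higher by more than 2-fold, 1502 and 405 had an interaction below and above 0, 502 were lower at 2 h and 69 genes with a Ume6 peak were higher. At an adjusted p under 0.01, 871 were lower at 4 h, the interaction was below 0 for 516 and above 0 for 609, and 528 were lower and 502 higher at 2 h. Leaving out replicates gave 663 to 1384 lower and 706 to 1527 higher at 4 h, 292 to 392 and 348 to 467 by more than 2-fold, interactions of 417 to 835 below and 513 to 1046 above 0, and 248 to 1207 lower and 254 to 1182 higher at 2 h. It gave 34 to 39 canonical targets lower and 14 to 19 higher, and 170 to 264 peak genes lower and 77 to 158 higher, with the lowest counts of all features without replicate 2. For peak genes, a window of 150 bp gave 155 lower and 40 higher, any fold enrichment 228 higher and summits within 500 bp upstream of the CDS 210 higher. The longer motif gave 72 lower. The cause of these changes was not tested. DESeq2 called 1387 lower and 1430 higher. With a replicate block 1278 were lower and 1269 higher. Between the strains at 4 h, the deviations of same-numbered libraries from their group means had correlations of 0.018, −0.054 and −0.010. Between 2 h and 4 h these were 0.24, 0.025 and 0.19 in T99N and −0.077, 0.20 and −0.043 in wild type. The libraries were fitted as unpaired, and with 3 in each group these values cannot show whether the numbers pair them. The interaction and the difference at 2 h could not be fitted with the 6 libraries at 4 h alone. The replicates limit small differences, since wild-type replicate 3 stood apart, and the T99N libraries were of lower depth than wild-type replicates 1 and 2.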
